A study of Mus musculus with 4 samples.

Results

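The genes described here are the repressors of the circadian clock: *Per1*, *Per2*, *Per3*, *Cry1*, *Cry2*, *Ciart*, *Bhlhe40* and *Bhlhe41*. They are 8 of the 35739 genes for which the authors deposited length-corrected abundances (TPM) in mouse liver, and each symbol matched 1 row. The 8 genes were selected on their known role in the negative limb of the clock, with the differences between genotypes in these same libraries already known. Those differences are therefore given as a description, without a test. The study compared the livers of WT mice (replicates 2 and 3) with those of *Usp21* KO mice (replicates 1 and 3), with 2 libraries per genotype. *Usp21* encodes a deubiquitinating enzyme, and the KO mice lacked its exons 3 and 4 in all tissues after Cre recombination of a floxed allele that was made in ES cells. KO and WT mice were littermates on a mixed background of B6 and the strain of the ES cells, 10 to 11 weeks old, on a normal diet and under a light-dark cycle. The time of day at which each liver was taken is not given in the sources used here.

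In the mammalian clock, the activators BMAL1 and CLOCK bind E-boxes, short DNA elements, and switch on the *Per* and *Cry* genes, whose protein products return to the nucleus and inhibit the activators. CIART (also called CHRONO) binds BMAL1 and represses it as well, and the basic helix-loop-helix proteins of *Bhlhe40* and *Bhlhe41* (DEC1 and DEC2) compete for E-boxes. In liver this loop runs in hepatocytes over the day and night. The transcripts of the repressors and of *Bmal1* therefore do not all peak at the same time of the day.

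The promoters of these genes carry the elements through which the loop acts, and RefSeq windows from 250 bases before to 50 bases after the start site (build GRCm38.p6) were found for 6 of the 8 genes, with 2 windows for *Per1*. *Per2* and *Bhlhe40* had no window in the table. Each window was searched on both strands for the E-box CACGTG, the E'-box CACGTT, the D-box TTATGNAA to which DBP, TEF and HLF bind, the ROR element TAGGTCA and the cAMP response element TGACGTCA. No 2 matches overlapped in the windows of these genes. *Ciart* is shown for its E-boxes, *Per3* for its D-boxes, *Per1* because it had one of each, and *Cry1* because it was the 1 gene of the 8 with a higher mean in KO. Matches are in capitals, and each sequence is written from 5′ to 3′ on the strand of the gene.
Ciart (chr3:95882179-95882478, reverse strand): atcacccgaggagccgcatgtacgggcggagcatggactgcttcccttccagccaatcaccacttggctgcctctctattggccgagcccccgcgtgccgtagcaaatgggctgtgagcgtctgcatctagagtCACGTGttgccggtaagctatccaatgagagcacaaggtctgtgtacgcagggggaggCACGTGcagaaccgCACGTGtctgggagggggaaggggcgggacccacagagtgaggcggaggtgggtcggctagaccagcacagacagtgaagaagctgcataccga
Per3 (chr4:151044616-151044915, reverse strand): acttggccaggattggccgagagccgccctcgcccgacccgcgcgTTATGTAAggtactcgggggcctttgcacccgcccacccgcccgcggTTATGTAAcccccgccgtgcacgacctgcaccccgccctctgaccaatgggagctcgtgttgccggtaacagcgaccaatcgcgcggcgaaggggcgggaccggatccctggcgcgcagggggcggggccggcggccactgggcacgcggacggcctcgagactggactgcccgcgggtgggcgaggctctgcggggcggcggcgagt
Per1, first window (chr11:69098699-69098998, forward strand): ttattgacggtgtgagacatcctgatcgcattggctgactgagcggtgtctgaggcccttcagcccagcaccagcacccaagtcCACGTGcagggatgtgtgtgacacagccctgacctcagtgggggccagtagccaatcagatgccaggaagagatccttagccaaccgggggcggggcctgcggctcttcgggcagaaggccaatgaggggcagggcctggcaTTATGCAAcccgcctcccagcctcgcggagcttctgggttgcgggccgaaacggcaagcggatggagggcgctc
Cry1 (chr10:85185005-85185304, reverse strand): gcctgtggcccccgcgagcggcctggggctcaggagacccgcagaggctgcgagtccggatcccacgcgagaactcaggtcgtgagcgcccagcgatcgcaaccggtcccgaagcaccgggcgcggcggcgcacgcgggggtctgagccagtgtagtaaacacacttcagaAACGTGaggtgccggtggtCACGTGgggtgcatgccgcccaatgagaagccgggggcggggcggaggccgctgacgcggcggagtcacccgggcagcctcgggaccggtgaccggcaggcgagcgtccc

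The *Ciart* window held 3 E-boxes, whose first bases were at -116, -58 and -44 from the start site. Of all 32851 windows in the table, 7.15% held at least 1 E-box and 0.0883% (29 windows) held 3 or more. The *Per3* window held 2 D-boxes and no E-box, compared with 3.38% of all windows with at least 1 D-box and 0.161% with 2 or more. *Per1* had an E-box and a D-box in its first window and no match in its second. *Cry1* had an E-box and an E'-box, *Cry2* an E'-box and *Bhlhe41* an E-box. At least 1 E'-box was found in 4.68% of all windows. The ROR element (2.61% of all windows) and the cAMP response element (1.79%) were not found in any of the 7 windows. A match in these letters is not a measured binding site.

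**Figure D1:**
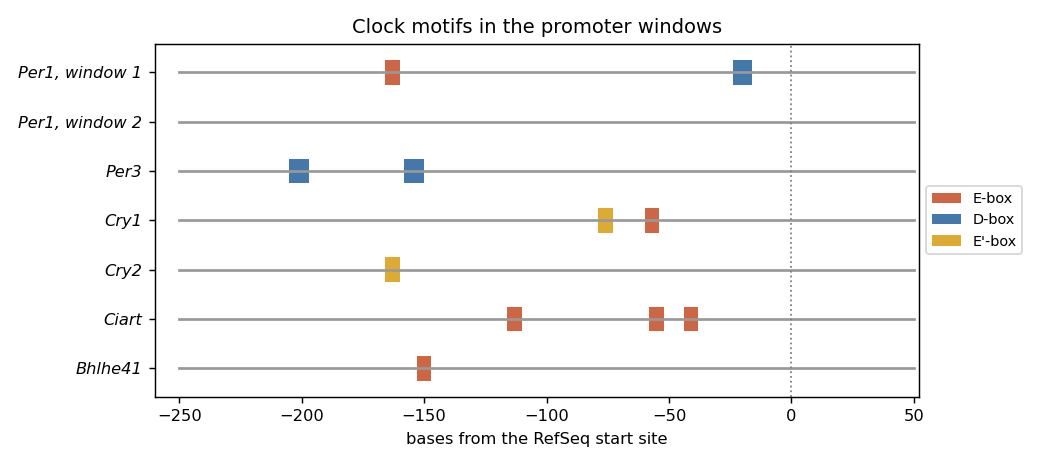
Positions of the E-box, E'-box and D-box letters in the 7 RefSeq promoter windows, in bases from the start site (dotted line), with 1 row per window. The 3 E-boxes of *Ciart* begin at -116, -58 and -44, and *Per3* has 2 D-boxes and no E-box.

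Salmon gave a TPM above 0 to between 12876 and 13620 genes per library. TPM keeps no record of sequencing depth, so no counting interval is given. How many reads lie behind values under 1 TPM, such as those of *Ciart* in KO liver, is therefore not known. *Usp21* itself was at 4.07 and 6.29 TPM in WT liver and, in KO liver, at 1.64 and 2.93 TPM. The hepatocyte markers (*Alb*, *Apoa1*, *Ttr*, *Trf*, *Cyp2e1* and *Cps1*) summed to between 55968 and 79930 TPM, with overlapping genotypes, although *Alb* (31006 and 27475 TPM in KO against 43181 and 32024 TPM) and *Cyp2e1* (3106 and 3041 TPM in KO against 4802 and 3150 TPM) were lower in both KO libraries. The 4 neutrophil markers summed to 43.7 TPM in WT replicate 3 and to between 1.85 and 4.38 TPM in the other 3 libraries. *S100a8* (29.05 TPM) and *S100a9* (12.7 TPM) made up most of the sum in WT replicate 3. *Retnlg* (1.66 TPM, against 1.46 TPM in WT replicate 2) and *Elane* (0.262 TPM) did not stand apart there. Between genotypes, *S100a8* and *Retnlg* (listed at 0 in KO) were lower in both KO libraries, and *S100a9* and *Elane* overlapped. Among the other marker lists, the summed level was higher in both KO libraries for stellate cells (60 and 77.5 TPM against 41.4 and 53.5 TPM) and cholangiocytes (24.5 and 37.9 TPM against 14.6 and 15.9 TPM), and lower for lymphocytes (2.50 and 3.38 TPM against 3.49 and 3.56 TPM). Of the stellate markers only *Dcn* and *Reln*, and of the cholangiocyte markers only *Krt19* and *Spp1*, were higher in both KO libraries, and the rest overlapped. Of the lymphocyte markers, *Cd3e* was lower in both KO libraries. *Ptprc* was higher (0.860 and 0.800 TPM in KO against 0.383 and 0.307 TPM), and the rest overlapped. The summed Kupffer cell, sinusoidal endothelial and red cell markers overlapped between genotypes, although *Lyve1* was higher and *Hbb-bt* and *Hba-a1* lower in both KO libraries. None of the markers was at 0 in every library. The part of these lists in the values below was not tested.

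In WT liver *Bhlhe40* was by far the most abundant of the 8 transcripts, with a mean of 38.6 TPM, followed by *Cry2* (6.42 TPM), *Ciart* (5.66 TPM), *Per1* (3.95 TPM), *Cry1* (2.50 TPM), *Per3* (1.30 TPM), *Bhlhe41* (0.855 TPM) and *Per2* (0.773 TPM). Within this order, the ranges of *Cry2* and *Ciart* overlapped, and so did those of *Per3* and *Bhlhe41* and of *Bhlhe41* and *Per2*, while the other neighbours were apart in the 2 libraries. In KO liver the order was *Bhlhe40* (21.7 TPM), *Cry1* (3.68 TPM), *Cry2* (3.08 TPM), *Per1* (1.74 TPM), *Per2* (0.555 TPM), *Per3* (0.321 TPM), *Ciart* (0.247 TPM) and *Bhlhe41* (0.164 TPM). *Ciart* moved from the third to the seventh place, and *Cry1* from the fifth to the second. The KO ranges of *Cry1* and *Cry2* overlapped, as did each neighbouring pair from *Per2* down to *Bhlhe41*. The order within each genotype was the same after the libraries were scaled by the median ratio.

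By mean, 7 of the 8 repressors were lower and 1, *Cry1*, was higher in *Usp21* KO livers. For 5 genes (*Per1*, *Cry2*, *Ciart*, *Bhlhe40* and *Bhlhe41*) each KO value was under each WT value, and 0 genes showed the reverse. In bulk liver, fewer cells of a type and less RNA per cell cannot be told apart. Averaged over the 4 libraries, 5 of the 8 genes reached 1 TPM (*Per1*, *Cry1*, *Cry2*, *Ciart* and *Bhlhe40*), and *Per2*, *Per3* and *Bhlhe41* were under it. Of the 9581 genes that passed this filter, 33.3% were lower and 66.7% higher in KO by mean. Each KO value was under each WT value for 10.9% of them, and 34.4% showed the reverse. Among the 5 repressors that passed, 4 (*Per1*, *Cry2*, *Ciart* and *Bhlhe40*) had each KO value under each WT value. On the log2(TPM + 1) scale, 1 of the 8 repressors (*Ciart*) was at least 2-fold lower in KO and 0 were at least 2-fold higher, compared with 1.10% and 2.59% of the tested genes. The median difference, KO minus WT, was -0.72 over the 8 repressors, -0.84 over the 5 that passed the filter and 0.15 over all tested genes. The contrast behind these counts is the one known when the genes were selected.

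**Figure D2:**
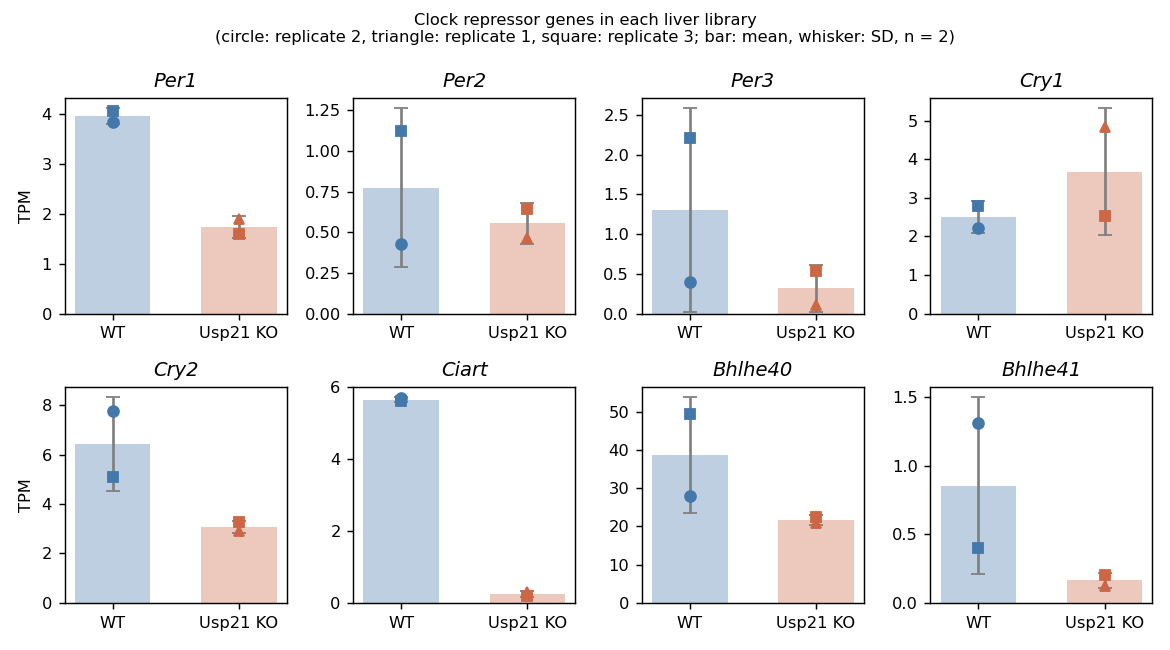
TPM of the 8 clock repressors in the 2 WT and 2 *Usp21* KO liver libraries, with points for the single libraries, bars for the mean and whiskers for the SD (n = 2 per genotype). The groups do not overlap for *Per1*, *Cry2*, *Ciart*, *Bhlhe40* and *Bhlhe41*, and *Ciart* shows the widest gap relative to its spread.

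The period genes encode the proteins that bind the cryptochromes and carry them to the nucleus. *Per1* (ENSMUSG00000020893, chromosome 11, 69095217 to 69109960, GRCm38) stood at 3.84 TPM in WT replicate 2, 4.07 TPM in WT replicate 3, 1.90 TPM in KO replicate 1 and 1.59 TPM in KO replicate 3, and the values of the other genes follow in the same order. The WT mean was 3.95 ± 0.160 TPM and the KO mean 1.74 ± 0.218 TPM (SD, n = 2 per genotype), a WT level 2.27 times that of KO. The replicates of each genotype lay close together and the genotypes were well apart. On the log2(TPM + 1) scale the difference was -0.86 (limma standard error 0.24), and its range was -0.94 to -0.77 when single libraries were omitted. *Per1* was thus the most evenly separated of the 3 period genes.

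*Per2* (ENSMUSG00000055866, chromosome 1, 91415982 to 91459324), which encodes a second period protein, reached 0.427 and 1.12 TPM in WT liver, and in KO liver 0.467 and 0.644 TPM. Both KO values fell inside the WT range. Its difference was -0.16 (standard error 0.26), and it changed sign, to 0.12, without WT replicate 3. *Per3* (ENSMUSG00000028957, chromosome 4, 151003652 to 151044665), which encodes a further period protein, reached 0.393 and 2.21 TPM in WT liver, and in KO liver 0.113 and 0.530 TPM. WT replicate 3 was highest, and KO replicate 3 lay above WT replicate 2. The difference of *Per3* was -0.70 (standard error 0.44), and it moved to -0.09 or -1.30 when WT replicate 3 or WT replicate 2 was omitted. *Per3* overlaps *Camta1* on the same strand, and *Camta1* reached 5.77 and 7.70 TPM in WT liver, and in KO liver 4.35 and 3.37 TPM.

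The 3 period transcripts together came to 4.66 and 7.39 TPM in WT liver, and in KO liver to 2.47 and 2.76 TPM. *Per1* made up 82.4% and 55.0% of that sum in WT replicates 2 and 3, and 76.6% and 57.5% in KO replicates 1 and 3. *Per3* made up 8.43% and 29.8% in WT, and 4.55% and 19.2% in KO. Its share was larger in the replicate 3 library of each genotype, and the shares of *Per1* and *Per3* overlapped between genotypes. *Per2* made up 9.16% and 15.1% in WT, and 18.9% and 23.3% in KO, without overlap.

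The cryptochromes are the main inhibitors of BMAL1 and CLOCK, and their pair of genes gave opposite differences. *Cry1* (ENSMUSG00000020038, chromosome 10, 85131700 to 85185064) reached 2.21 and 2.80 TPM in WT liver, and in KO liver 4.84 and 2.52 TPM. KO replicate 1 was above the other libraries and KO replicate 3 lay within the WT range. The difference of *Cry1* was 0.38 (standard error 0.33), and it was 0.01 without KO replicate 1. *Cry2* (ENSMUSG00000068742, chromosome 2, 92403646 to 92434043) reached 7.76 and 5.09 TPM in WT liver, and in KO liver 2.91 and 3.26 TPM. The genotypes did not overlap, with a WT mean of 6.42 ± 1.89 TPM and a KO mean of 3.08 ± 0.248 TPM (SD, n = 2). Its difference was -0.84 (standard error 0.27), and its range was -1.10 to -0.58 when single libraries were omitted.

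Within each library, *Cry2* stood at 3.51 and 1.82 times the level of *Cry1* in WT, and at 0.600 and 1.29 times in KO. Both ratios were lower in KO, and in KO replicate 1 *Cry1* was the more abundant of the pair. The summed level of both cryptochromes was 9.97 and 7.88 TPM in WT liver, and in KO liver 7.74 and 5.78 TPM, with the ranges nearly touching.

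*Ciart* (ENSMUSG00000038550, chromosome 3, 95878503 to 95882251), whose promoter with 3 E-boxes is printed above, had the lowest KO level relative to WT of the 8 genes. It reached 5.70 and 5.61 TPM in WT liver, and in KO liver 0.301 and 0.194 TPM. Replicates differed little and the genotypes lay far apart. The WT mean was 5.66 ± 0.0614 TPM and the KO mean 0.247 ± 0.0754 TPM (SD, n = 2), a WT level 22.9 times that of KO. Its difference on the log2(TPM + 1) scale was -2.42 (standard error 0.25), which only 14 of the 9581 tested genes exceeded in the lower direction. The difference of *Ciart* ranged from -2.48 to -2.36 when single libraries were omitted. Because its KO level was under the pseudocount of 1, the size depends on it, and pseudocounts of 0.1 and 5 gave -4.07 and -1.02. *Ciart* passed the filter through its WT libraries alone.

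*Bhlhe40* (ENSMUSG00000030103, chromosome 6, 108660629 to 108666925) and *Bhlhe41* (ENSMUSG00000030256, chromosome 6, 145858243 to 145865558) encode related repressors. *Bhlhe40* reached 28.0 and 49.3 TPM in WT liver, and in KO liver 20.8 and 22.6 TPM. The genotypes did not overlap, and WT replicate 3 was well above the other 3 libraries. Its difference was -0.75 (standard error 0.29), and it moved to -0.35 or -1.15 when WT replicate 3 or WT replicate 2 was omitted. *Bhlhe41* reached 1.31 and 0.399 TPM in WT liver, and in KO liver 0.124 and 0.203 TPM, and here WT replicate 2 was the high library. The difference of *Bhlhe41* was -0.63 (standard error 0.28), with a range from -0.99 to -0.27 over the libraries left out. *Bhlhe40* held between 56.4% and 71.7% of the summed TPM of all 8 repressors in each library. Without it, the other 7 genes summed to 21.6 and 21.3 TPM in WT liver, and in KO liver to 10.6 and 8.93 TPM. *Per1*, *Per2*, *Per3* and *Bhlhe40* were highest in WT replicate 3, the library with high *S100a8* and *S100a9*, whose part in these values was not tested. *Cry2*, *Ciart* and *Bhlhe41* were highest in WT replicate 2.

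**Figure D3:**
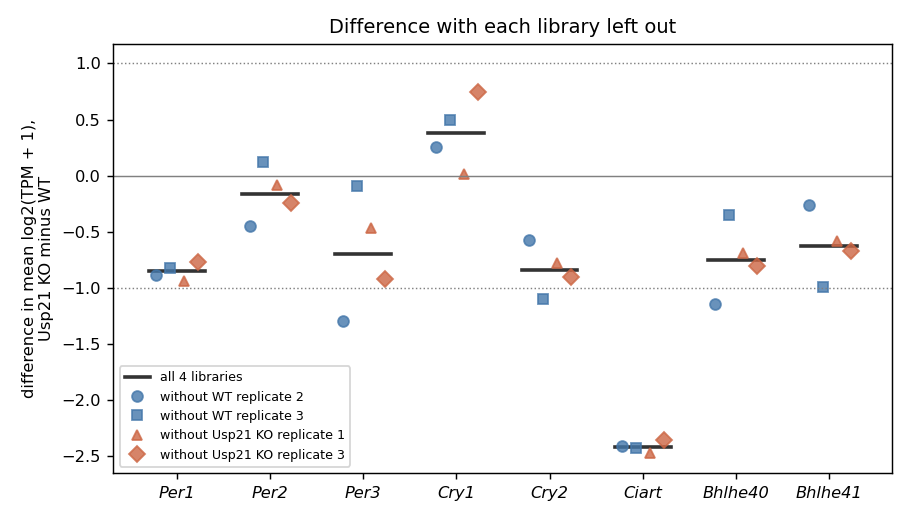
Difference in mean log2(TPM + 1), *Usp21* KO minus WT, for each clock repressor with all 4 libraries (bar) and with 1 library left out (points), where dotted lines mark a 2-fold difference. *Ciart* stays between -2.48 and -2.36 and *Per1* between -0.94 and -0.77, while *Per2* crosses 0 without WT replicate 3.

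The ratio of mean TPM, WT to KO, which uses no pseudocount, was 22.9 for *Ciart*, 5.22 for *Bhlhe41*, 4.04 for *Per3*, 2.27 for *Per1*, 2.08 for *Cry2*, 1.78 for *Bhlhe40*, 1.39 for *Per2* and 0.680 for *Cry1*. The ratios of *Ciart*, *Bhlhe41* and *Per3* divide by low KO means of 0.247, 0.164 and 0.321 TPM. In WT, *Bhlhe41* was at 1.31 and 0.399 TPM and *Per3* at 0.393 and 2.21 TPM, so the higher WT library weighs most in each. With a pseudocount of 0.1, 5 of the 8 repressors were at least 2-fold lower (*Per1*, *Per3*, *Cry2*, *Ciart* and *Bhlhe41*). At that pseudocount, 820 of the 9581 tested genes were at least 2-fold different, 616 of them higher in KO. *Per3* and *Bhlhe41* were under the filter and so not among the tested genes, and the genotypes of *Per3* overlapped. Scaling the libraries to an equal upper quartile, or by the median ratio, moved the median difference of all tested genes from 0.15 to 0.04 or 0.00. The 7 repressors with a lower mean and the 5 without overlap were the same in number under both scalings, and no repressor changed sign.

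The rest of the clock was examined with limma on log2(TPM + 1), fitted over all tested genes. At an unadjusted p under 0.05, 2.04% of the tested genes were lower and 8.45% higher in KO, and 0.0835% (8 genes) passed an adjusted p of 0.05. Of 39 tested genes in 7 lists of clock and related genes, 6 were lower and 10 higher in KO at an unadjusted p under 0.05, and 1 (*Dbp*) had an adjusted p under 0.05, a call that did not hold with any 1 library omitted. After either scaling, 6 were lower and 6 higher. These lists were also written with earlier results of these libraries known.

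Of the 4 activators, *Bmal1* and *Clock* passed the filter, and *Bmal1* did so through its KO libraries alone, so that its p is no independent support. *Bmal1* (the annotation's *Arntl*), the partner that the repressors inhibit, reached 0.241 and 0.243 TPM in WT liver, and in KO liver 5.89 and 4.05 TPM, a difference of 2.25 (standard error 0.28, unadjusted p = 0.000289, adjusted p = 0.154 from limma). *Clock*, which encodes its partner, reached 1.23 and 1.02 TPM in WT liver, and in KO liver 5.07 and 3.24 TPM (difference 1.26, adjusted p = 0.450 from limma). *Npas2*, which encodes a substitute for CLOCK, was listed at 0 in each WT library and reached 0.906 and 0.112 TPM in KO, and *Bmal2* was under 0.1 TPM in every library. *Npas2* and *Bmal2* were under the filter. Within each library, *Ciart* stood at 23.6 and 23.1 times the level of *Bmal1* in WT and at 0.0510 and 0.0478 times in KO, and *Per1* at 15.9 and 16.8 times in WT and at 0.322 and 0.392 times in KO. *Ciart* and *Per1* were thus above *Bmal1* in both WT libraries and below it in both KO libraries, whereas *Bhlhe40* was above *Bmal1* in all 4.

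The nuclear receptors of the second loop, which act on *Bmal1* through ROR elements, are represented here by *Nr1d1*, *Nr1d2* and *Rora*, and each had an unadjusted p above 0.05. *Nr1d1*, which encodes the repressor REV-ERBα, reached 33.9 and 9.92 TPM in WT liver, and in KO liver 25.1 and 26.9 TPM. Its WT libraries lay on both sides of the KO libraries, and its difference moved to 1.31 or -0.37 when WT replicate 2 or WT replicate 3 was omitted. *Nr1d2* differed by -0.25 and *Rora* by 0.67 (adjusted p = 0.748 for *Nr1d1*, 0.621 for *Nr1d2* and 0.494 for *Rora*, limma).

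Among the D-box factors, *Dbp*, *Tef* and *Hlf*, which encode activators, were lower and *Nfil3*, which encodes the repressor that binds the same element, was higher, all 4 with an unadjusted p under 0.05. *Dbp* differed by -3.08 (adjusted p = 0.0193 from limma). The adjusted call of *Dbp* was lost when any single library was omitted (adjusted p from 0.170 to 0.355) and also without moderation (0.438) or without the filter (0.0577), while its difference stayed between -3.31 and -2.85 over the libraries omitted. In the second deposited table, described at the end, *Dbp* had 2 and 1 reads in WT and 7 and 3 reads in KO, the opposite direction. *Tef* differed by -1.06 and *Hlf* by -0.62 (adjusted p = 0.402 and 0.464). *Nfil3* reached 3.86 and 8.13 TPM in WT liver, and in KO liver 17.0 and 24.5 TPM (difference 1.69, adjusted p = 0.436 from limma).

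**Figure D4:**
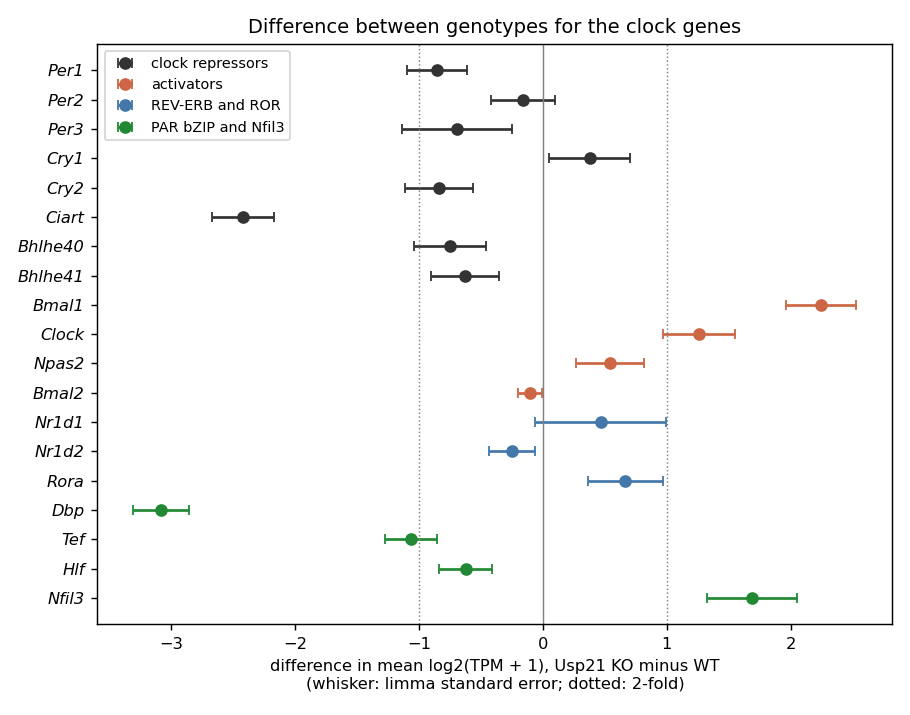
Difference in mean log2(TPM + 1), *Usp21* KO minus WT, with the limma standard error, for the 8 repressors and 11 other clock genes, where dotted lines mark a 2-fold difference. *Ciart* (-2.42) and *Dbp* (-3.08) lie at the low end and *Bmal1* (2.25) at the high end. *Npas2*, *Bmal2*, *Per2*, *Per3* and *Bhlhe41* were fitted without the filter on low TPM.

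Of the other genes listed as outputs of the clock, all 5 (*Wee1*, *Nampt*, *Usp2*, *Tsku* and *Por*) were lower by mean, compared with 33.3% of all tested genes. At an unadjusted p under 0.05 in limma, 3 of them were lower, compared with 2.04% of all tested genes. Their promoters were not searched for E-boxes. *Usp2*, a deubiquitinating enzyme whose transcript follows the clock, reached 11.5 and 12.7 TPM in WT liver, and in KO liver 1.81 and 2.37 TPM (difference -2.09, adjusted p = 0.101 from limma). *Por*, the electron donor of the cytochromes P450, reached 175 and 168 TPM in WT liver, and in KO liver 81.8 and 81.4 TPM (difference -1.06, adjusted p = 0.203 from limma). *Wee1*, a cell cycle kinase that passed the filter through its WT libraries alone, differed by -1.24 (adjusted p = 0.464), and *Nampt* and *Tsku* overlapped between genotypes.

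Of 11 tested genes for factors that set the stability of PER and CRY proteins, 9 were higher and 2 lower by mean, compared with 66.7% of all tested genes higher by mean. *Usp2*, which is also among the clock outputs above, was lower at an unadjusted p under 0.05 and the other 10 did not reach it. *Csnk1d*, a casein kinase that phosphorylates PER proteins, reached 12.2 and 13.0 TPM in WT liver, and in KO liver 16.1 and 16.1 TPM (difference 0.33, adjusted p = 0.536 from limma). *Usp7*, which removes ubiquitin from CRY1, differed by 0.53 (adjusted p = 0.479) and *Csnk1a1* by 0.29 (adjusted p = 0.567).

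**Figure D5:**
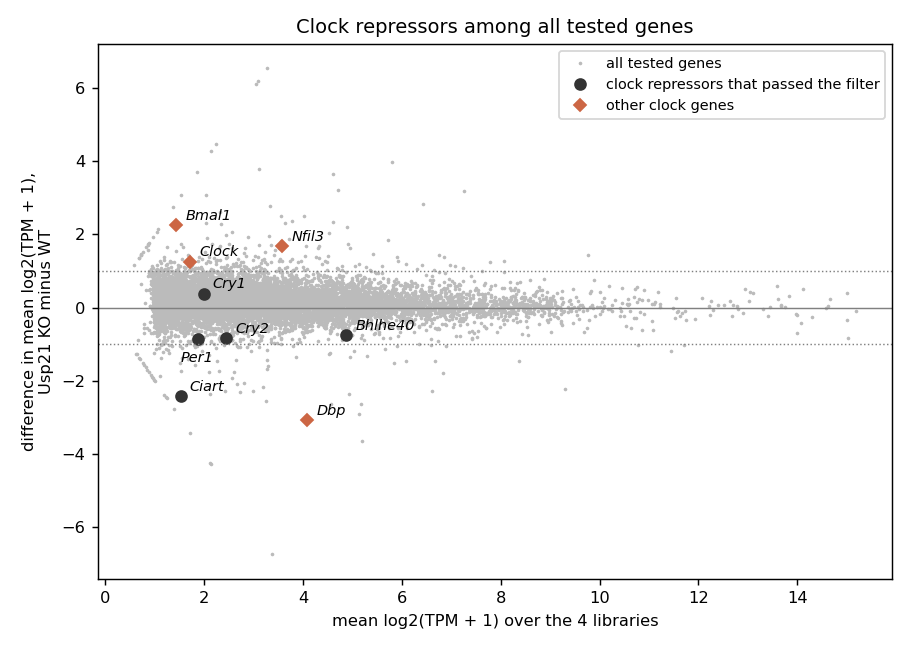
Difference in mean log2(TPM + 1), *Usp21* KO minus WT, against the mean over the 4 libraries for the 9581 tested genes (grey), with the 5 repressors that passed the filter (circles) and 4 other clock genes (diamonds). *Per1*, *Cry2* and *Bhlhe40* lie at the lower edge of the cloud between 0 and the 2-fold line, *Ciart* lies below it, and *Cry1* lies inside the cloud.

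For each of the 5 repressors that passed the filter, the tested gene with the most similar profile over the 4 libraries was sought, as the smallest root mean square difference of log2(TPM + 1) after each gene was centred on its mean. The nearest genes were *Map2k6* for *Per1* (0.0362), *Rmnd1* for *Cry1* (0.0153), *Gstt3* for *Cry2* (0.0587), *Gm19680* for *Ciart* (0.0600) and *Trim47* for *Bhlhe40* (0.0649). With only 4 libraries many genes match closely, and 171 tested genes were within 0.1 of *Cry1* but only 2 within 0.1 of *Ciart*. *Gm19680* was at 4.44 and 3.99 TPM in WT liver and was listed at 0 in both KO libraries. The nearest other repressor was *Bhlhe41* for *Cry2* (0.128, with 15 tested genes nearer), *Per3* for *Bhlhe40* (0.191, with 51 nearer), *Cry2* for *Per1* (0.232, with 192 nearer), *Per1* for *Ciart* (0.782, with 71 nearer) and *Per2* for *Cry1* (0.432, with 6980 nearer). Among these 5 repressors, *Ciart* lay farthest from its nearest other repressor, and *Cry1* had the most tested genes nearer than its own. The difference of *Cry1* was 0.01 without KO replicate 1.

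In the second deposited table, reads aligned to mm10 and counted per gene, 6 of the 8 repressors were at 0 in every library. *Cry1* had 1 read in KO replicate 1, and *Cry2* had 1 read in each WT library. That table also gave *Alb* between 1 and 9 reads per library where the TPM table gave between 27475 and 43181 TPM, so it was not used for levels. A count of 0 there allows up to 3 reads, for counting error alone.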

How the data were processed

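RNA-seq was performed with an Illumina MiSeq on liver RNA of 2 WT and 2 *Usp21* KO mice. Samples were grouped by their GEO titles and columns matched by name. All per-sample columns were mapped (0 unused). The authors estimated abundances with salmon and deposited them per Ensembl gene as TPM. They also deposited HTSeq counts on mm10 divided by TMM library sizes (edgeR), a count-based signal in which 100% of values came back as whole reads (tolerance 0.02), or 102898 to 148164 reads per library. Tool versions, annotation release and strand setting are not given in the sources used here. Log2 versions of both tables were not used.

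Genes that averaged 1 TPM or more were fitted as log2(TPM + 1) with limma 3.58.1 (eBayes with trend, prior degrees of freedom 3.62), two-sided, with Benjamini-Hochberg adjustment over 9581 genes. Genes under the filter took their standard errors from a fit without it. No batch was given. Nothing beyond the titles says that the libraries came from separate mice, so p-values measure only the spread between these libraries, and 2 against 2 libraries allow no exact permutation p below 0.333. The fits were also run on simulated data with independent noise for each gene. Those data held no batch and no shift of most genes between genotypes, so they cannot show how the fits handle either. Alternatives were other pseudocounts, filters and scalings, no moderation, the count-based table, edgeR 4.0.16 on its reads, and each library left out.

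The repressors, the lists and the rule for naming genes (all repressors, list genes with the smallest p, nearest profiles) were chosen with earlier results of these data known. GENCODE M21 (GRCm38) gave coordinates and matched *Bmal1* and *Bmal2* to *Arntl* and *Arntl2* by gene ID, and promoters came from RefSeq (GRCm38.p6). Antisense genes overlap *Cry2*, *Ciart*, *Bhlhe40* and *Bhlhe41*, so reads could be shared if the libraries are not stranded. Some genes of the lists are counted but not reported singly here.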

Additional observations from a re-analysis of the deposited data

How the results depend on the processing

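No paired analysis was possible because the genotypes share only 1 replicate number. The count of repressors at least 2-fold different was 1, and it was 5 with a pseudocount of 0.1, 2 on the count-based table and from 1 to 3 with a library left out. The count without overlap was 5, and 1 on the count-based table, where single reads decide it. The median difference of the repressors was -0.72, and it was -1.08 and -0.32 with pseudocounts of 0.1 and 5 and 0.00 on the count-based table. The number of all tested genes at least 2-fold different was 353 (248 higher in KO). It was 820 and 115 with pseudocounts of 0.1 and 5, 203 with a mean of at least 5 TPM, 3134 on the count-based table, 2915 in edgeR on the recovered reads, and from 463 to 695 with a library left out, highest without KO replicate 3. With the median ratio scaling it was 311, of which 154 were higher. The 16 other clock genes at an unadjusted p under 0.05 became 13 without moderation, 0 of 10 testable genes on the count-based table, and 11 to 13 with a library left out. The number of all genes with an adjusted p under 0.05 was 8, and it was 0 without moderation (806 at an unadjusted p under 0.05), 0 without any one library (542 to 1188 unadjusted), 4 without the filter and 12 with edgeR (quasi-likelihood, recovered reads, 168 unadjusted). Of the 10 other clock genes testable on the count-based table, 4 had the opposite sign there, among them *Dbp* (1.52) and *Sfpq* (-1.56), and the cause was not tested. Of the single repressors, *Per2* alone changed sign, without WT replicate 3.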

Other observations

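Transcripts for proteins that assemble with PER and CRY were also measured. Of the 8 tested genes, 8 were higher in KO by mean and 4 had an unadjusted p under 0.05 (*Sfpq*, *Ncor1*, *Nono* and *Sirt1*), with 0 past an adjusted p of 0.05 in limma. Of all tested genes, 66.7% were higher by mean and 8.45% were higher at an unadjusted p under 0.05. *Sfpq*, an RNA-binding protein of the PER complex, reached 8.01 and 16.3 TPM in WT liver, and in KO liver 41.2 and 23.6 TPM (difference 1.37, adjusted p = 0.464 from limma). *Sfpq* differed by 0.90 without WT replicate 2 and by 1.84 without WT replicate 3. Under the upper quartile and median ratio scalings, only *Sfpq* kept an unadjusted p under 0.05, and *Hdac3* had the opposite sign. *Sfpq* also had the opposite sign (-1.56) in the count-based table.

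Genes that glucocorticoids or cAMP induce, inputs to which *Per1* also responds, had 3 of 6 tested members higher at an unadjusted p under 0.05 and 0 lower, compared with 8.45% and 2.04% of all tested genes. Of these 3, *Zbtb16*, passed the filter on low TPM through its KO libraries alone. *Crem*, a cAMP-responsive transcription factor, reached 11.5 and 14.5 TPM in WT liver, and in KO liver 30.8 and 42.0 TPM (difference 1.41, adjusted p = 0.291 from limma). *Zbtb16* reached 0.773 and 0.904 TPM in WT liver, and in KO liver 4.61 and 2.83 TPM (difference 1.34, adjusted p = 0.443 from limma), and *Tsc22d3* differed by 0.78 (adjusted p = 0.464). *Sgk1* differed by -0.08 and *Fkbp5* by 0.27, without reaching an unadjusted p of 0.05. The call of *Tsc22d3* was lost under both scalings.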
